A study of Rattus norvegicus with 24 samples.

Results

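The data described here compare rat neural stem cells at day 0 with cells differentiated from them in the presence of vitamin C, by RNA-seq. The comparison rests on 4 of the 24 samples of the series, all from the Sprague-Dawley strain: 2 stem cell libraries, D0 replicates 1 and 2, and 2 libraries of differentiated cells with vitamin C, VC+ replicate 1 labelled day 4 and VC+ replicate 2 labelled day 5. Each VC+ library was set against the D0 library of the same replicate number, which gave 2 pairs. The members are the 11520 of 12187 genes in the authors' table that reached at least 1 CPM (the authors' unit, the reads of a gene scaled to a common library total) in at least 2 of these 4 libraries. Differences are on the scale of log2(CPM + 0.5), so that 1 is a doubling, and the added 0.5 makes the difference of a low gene smaller than its true fold. The remaining group of the fit, 2 libraries differentiated without vitamin C (VC-, replicate 1 labelled day 4 and replicate 2 day 5), was included in the fit and is given beside the results; these are called differentiated controls below. The labels name no genetic change in any group, the dose of vitamin C and the culture medium are not given in the sources used here, and no label says whether replicates were separate cultures or animals. The p-values therefore measure the spread between these samples, which may be technical. The other 18 samples were not analysed here.

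Neural stem cells in culture divide under growth factors such as FGF, whose receptors signal through the ERK kinases and switch on feedback inhibitors of the same route. When differentiation starts, such cells leave the cell cycle, lose stem cell regulators and take on programmes of astrocytes, oligodendrocytes or neurons. Dioxygenases that hold iron need vitamin C to stay active. They include the enzymes that hydroxylate collagen, those that target HIF1 alpha for breakdown, and several that demethylate histones and DNA.

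The reads recovered from the CPM values numbered 4811094 and 10299321 in the D0 libraries and 6641721 and 13184601 in the VC+ libraries, so replicate 2 was the deeper in both groups. Microglia and fibroblast markers differed more between replicate numbers than between groups. The summed level of 18 microglia and macrophage markers was 16.0 CPM in D0 and 26.4 CPM in VC+ in replicate 1, where 8 and 7 of them were at 0. In replicate 2 it was 1095 CPM in D0 and 1508 CPM in VC+, and none was at 0. The 14 fibroblast, pericyte and meninges markers summed to 311 CPM in D0 and 309 CPM in VC+ in replicate 1, and to 10034 CPM and 4151 CPM in replicate 2. Endothelial markers summed to at most 59.1 CPM in any of the 4 libraries. The 5 choroid plexus markers summed to 45.0 CPM in D0 and 257 CPM in VC+ in replicate 1 and to 124 CPM and 193 CPM in replicate 2. All 4 of those tested went opposite ways or were tied in at least 1 pair, so the sums do not describe each member. The 8 ependyma and motile cilia markers summed to 70.1 CPM in D0 and 91.0 CPM in VC+ in replicate 1 and to 155 CPM and 1137 CPM in replicate 2. In bulk RNA, fewer cells of a type and less RNA per cell cannot be told apart.

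Across the 11520 genes, 3247 (28.2%) were higher in VC+ than in D0 in both pairs, 3406 (29.6%) were lower in both pairs, and 4867 went opposite ways or were tied in at least 1 pair. Both VC+ libraries lay above both D0 libraries for 1613 genes (14.0%) and below them for 1553 genes (13.5%). The difference was at least 2-fold in both pairs for 338 genes higher in VC+ than in D0 (2.93%) and for 306 genes lower (2.66%), and at least 4-fold in both pairs for 50 and 49 genes. In limma with the replicate number as a block, no gene passed an adjusted p of 0.05 (0% called). The smallest adjusted p was 0.0532, and 928 genes were higher and 939 lower at an unadjusted p under 0.05. The edgeR quasi-likelihood test on the recovered reads with the same block also called 0 genes, with 1842 at an unadjusted p under 0.05. DESeq2 on the same reads with the same replicate term called 388 genes higher (3.37%) and 343 lower (2.98%), 6.35% in all, of which 386 and 343 had that direction in both pairs. The number of calls therefore depended on the tool, and gene results below are given as values in every library with the adjusted p of limma or DESeq2 named beside them. Without D0 replicate 1, limma called 666 genes higher and 563 lower, and without D0 replicate 2 it called 754 and 451. Leaving out any of the other 4 libraries gave 0 calls in each case.

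The plot of the replicate 2 difference against the replicate 1 difference shows how far the pairs went together. Of 339 genes at least 4-fold higher in VC+ than in D0 in replicate 1, 266 (78.5%) were also higher in replicate 2, with a median of 0.76 there. Of 183 at least 4-fold lower in replicate 1, 145 (79.2%) were also lower in replicate 2, with a median of -1.25. Over all genes, 49.6% were higher and 50.4% lower in replicate 2. Read the other way, 241 of 324 genes at least 4-fold higher in replicate 2 (74.4%) and 121 of 140 at least 4-fold lower (86.4%) had the same direction in replicate 1, where 48.9% of all genes were higher and 50.1% lower. Across all genes, which are not independent, the 2 sets of differences had a Pearson r of 0.343 and a Spearman rho of 0.260 (n = 11520). At least 2-fold differences in opposite directions were seen for 120 genes (1.04%).

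**Figure D1:**
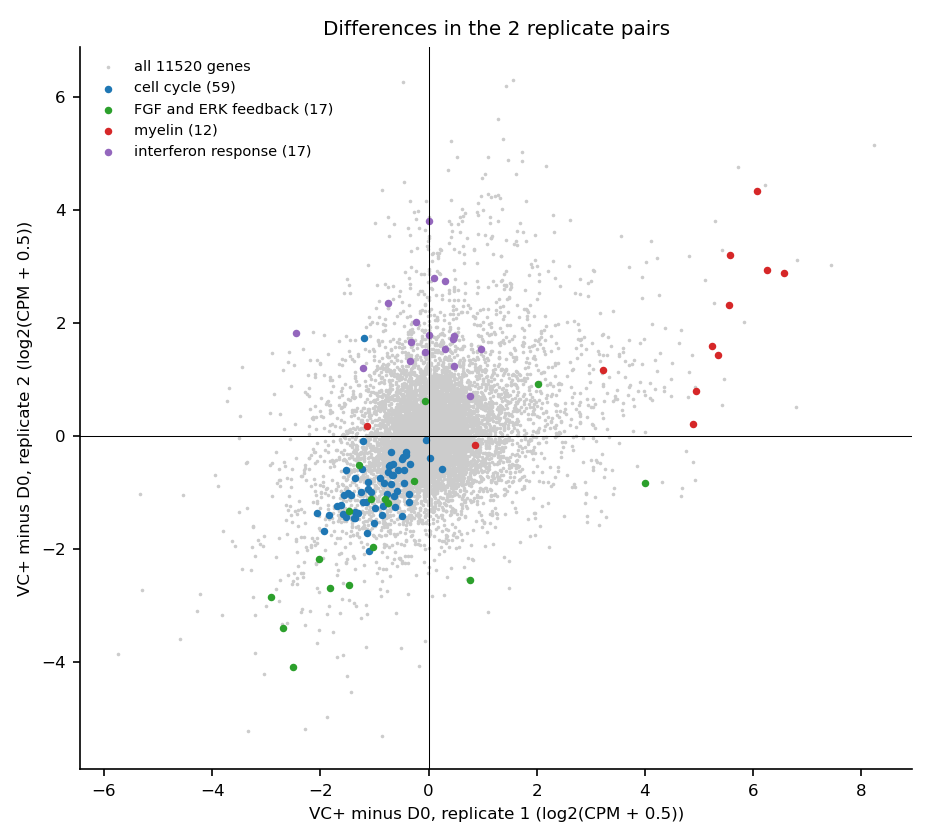
Difference VC+ minus D0, log2(CPM + 0.5), in replicate 1 (horizontal axis) and in replicate 2 (vertical axis), 1 point per gene for 11520 genes, with members of 4 gene lists in colour. Cell cycle genes lie at lower left, 56 of 59 below 0 on both axes, and myelin genes lie at right, farther from 0 in replicate 1 (median 5.30) than in replicate 2 (median 1.51).

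Of the genes of smallest p on the higher side, Fbxo2, an F-box protein that recognises glycoproteins, stood at 4.16 and 19.9 CPM in the 2 D0 libraries (replicate 1, then 2, here and below) and at 37.9 and 156 CPM in the VC+ libraries, a difference of 2.99 (SE from limma 0.18, limma adjusted p = 0.0532). Maob, the monoamine oxidase of astrocytes, was at 2.4 and 5.26 CPM in D0 and 33.7 and 66.8 CPM in VC+ (3.55, SE 0.23, limma adjusted p = 0.0576). Igsf11, an adhesion protein of the immunoglobulin superfamily, was at 14.8 and 17 CPM in D0 and 106 and 99.5 CPM in VC+. The naming rule took only genes without overlap, so for each of these both VC+ libraries were above both D0 libraries. The same was true of Aox1, an aldehyde oxidase (9.33 and 19 CPM in D0, 52.5 and 122 CPM in VC+), and of Entpd2, an enzyme that splits extracellular ATP (1.26 and 5.45 CPM in D0, 30.04 and 64.8 CPM in VC+). Synm, the intermediate filament protein synemin, was at 4.67 and 17 CPM in D0 and 96.5 and 155 CPM in VC+, and Slc14a1, a urea transporter, at 3.53 and 6.57 CPM in D0 and 52.2 and 55.7 CPM in VC+. All 7 passed in DESeq2, run on the same libraries that chose them, with adjusted p between 2.55e-13 for Slc14a1 and 9.32e-20 for Maob.

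On the lower side, Col5a3, a fibrillar collagen chain, was at 625 and 451 CPM in D0 and 43.7 and 49.7 CPM in VC+, a difference of -3.50 (SE 0.21, limma adjusted p = 0.0532; DESeq2 adjusted p = 1.05e-26). Igfbp2, a secreted binding protein of insulin-like growth factors, was at 699 and 1739 CPM in D0 and 123 and 293 CPM in VC+ (-2.53, SE 0.20). Sorcs1, a sorting receptor, was at 149 and 245 CPM in D0 and 22.4 and 23.8 CPM in VC+. By the same condition of the rule, the D0 and VC+ libraries did not overlap for any of these genes. Apln, the peptide ligand apelin, was at 57.4 and 17.7 CPM in D0 and 2.49 and 1.64 CPM in VC+. The largest difference on this side was that of Nrgn, a calmodulin-binding protein of neurons, at 143 and 27.1 CPM in D0 and 2.2 and 1.4 CPM in VC+ (-4.80, SE 0.84). Rgs8, a regulator of G-protein signalling (216 and 45.3 CPM in D0, 23.1 and 2.72 CPM in VC+), followed the same pattern. Outside the naming rule, because its D0 and VC+ libraries overlap, Tenm4, a teneurin adhesion receptor picked once its values had been seen, stood at 32.3 and 418 CPM in D0 and 5.17 and 67.8 CPM in VC+, about the same ratio in both pairs (-2.57, SE 0.16, limma adjusted p = 0.0532).

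**Figure D2:**
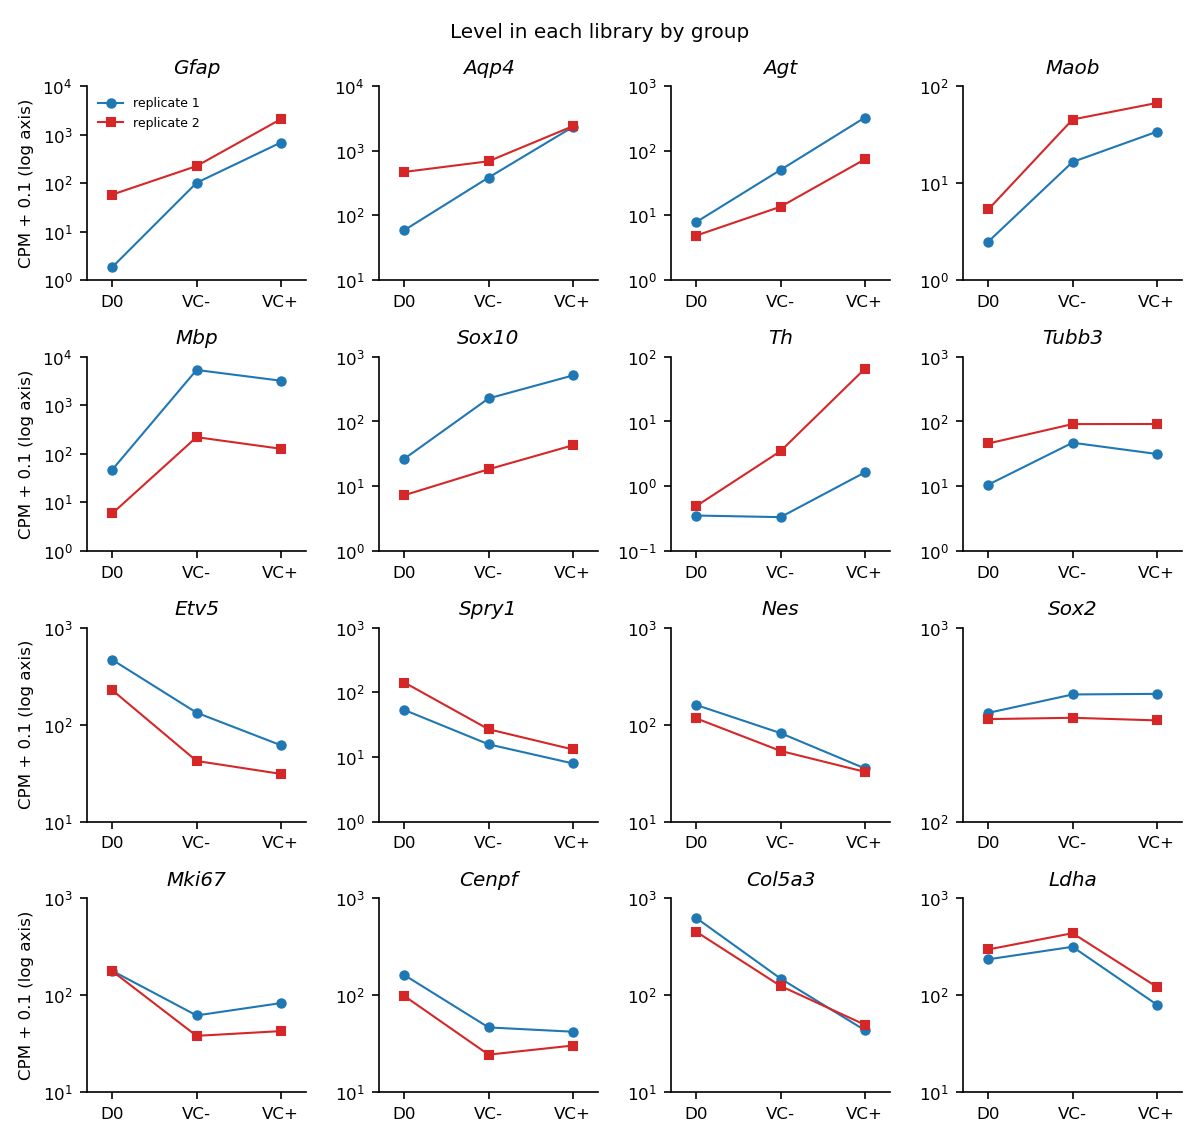
CPM per library, on a log axis with 0.1 added, of 16 genes in D0, differentiated control (VC-) and VC+ cells, with 1 line per replicate number. Gfap and Aqp4 end highest in VC+ in both replicates, Mbp is higher in both differentiated groups than in D0, and Etv5, Spry1, Col5a3 and Nes are lowest in VC+ in both replicates.

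Genes that report FGF and ERK signalling were lower with vitamin C than in stem cells. Of 17 tested members of this list, 13 were lower in both pairs and 1 was higher, with a median difference of -1.09 against 0.00 over all genes, and DESeq2 called 8 lower and 1 higher. Over all genes, 28.2% were higher and 29.6% lower in both pairs, the shares to set beside these counts and those of the lists below. Without overlap the shares were 14.0% above and 13.5% below D0, and DESeq2 called 3.37% higher and 2.98% lower. Etv5, an ETS transcription factor switched on by ERK, was at 464 and 226 CPM in D0 and 61.2 and 31 CPM in VC+ (-2.88, SE 0.22, limma adjusted p = 0.0578). Its relative Etv4 was at 111 and 132 CPM in D0 and 19.2 and 7.26 CPM in VC+ (-3.30, SE 0.42). The feedback inhibitor Spry1 was at 53.1 and 141 CPM in D0 and 7.85 and 13 CPM in VC+. Both ETS factors and Spry1 thus had every VC+ library below every D0 library, as did Spry4 (40.4 and 79.2 CPM in D0, 11 and 11.8 CPM in VC+) and Spry2 (193 and 167 CPM in D0, 94.2 and 42.5 CPM in VC+). Dusp6, the phosphatase that inactivates ERK, was at 96.5 and 161 CPM in D0 and 23.3 and 35.1 CPM in VC+ (-2.10, SE 0.15, limma adjusted p = 0.0578). Among the receptors, Fgfr1 was at 455 and 944 CPM in D0 and 218 and 434 CPM in VC+, and Egfr at 194 and 132 CPM in D0 and 69.7 and 20.8 CPM in VC+. Fgfr2 was the member higher in both pairs, at 20.2 and 68.5 CPM in D0 and 83.5 and 131 CPM in VC+ (DESeq2 adjusted p = 0.0124). Fgfbp3, a carrier of secreted FGF, went opposite ways in the pairs (34.7 and 422 CPM in D0, 33 and 647 CPM in VC+).

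The cell cycle list was lower almost throughout: 56 of 59 genes were lower in both pairs (29.6% of all genes), and none was higher in both pairs. Of the 59, 44 had both VC+ libraries below both D0 libraries (13.5% of all genes). The median difference was -0.94, with -0.90 in replicate 1 and -0.99 in replicate 2, and DESeq2 called 26 of the 59 lower (2.98% of all genes). The promoters of 4 of these genes, transcribed late in the cycle, are shown as examples. Each holds the letters of both elements known from late cell cycle promoters, CCAAT and TTTGAA. The CCAAT box is bound by the factor NF-Y. TTTGAA is the core of the cell cycle homology region read by the DREAM and MuvB complexes. In all, 12 cell cycle genes held both within 250 bases before the start, with differences from -1.71 (Ccnb2) to -0.65 (Prc1). Each line gives the 150 bases before the gene's start from RefSeq on the GRCr8 build, written along the gene's own strand, which is the minus strand for all 4, with matches to CCAAT or TTTGAA on either strand in capitals. They are Ccnb2, cyclin B2, at chr8:79981659-79981808; Mki67, the proliferation antigen Ki-67, at chr1:199952594-199952743; Kif23, a kinesin of cytokinesis, at chr8:71320585-71320734; and Top2a, topoisomerase II alpha, at chr10:84473094-84473243.
Ccnb2: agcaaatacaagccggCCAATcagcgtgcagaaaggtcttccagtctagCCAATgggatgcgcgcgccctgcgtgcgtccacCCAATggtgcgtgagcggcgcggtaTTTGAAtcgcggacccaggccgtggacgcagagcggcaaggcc
Mki67: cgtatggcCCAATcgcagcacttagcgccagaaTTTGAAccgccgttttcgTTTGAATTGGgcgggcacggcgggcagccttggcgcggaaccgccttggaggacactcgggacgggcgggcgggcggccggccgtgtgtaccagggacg
Kif23: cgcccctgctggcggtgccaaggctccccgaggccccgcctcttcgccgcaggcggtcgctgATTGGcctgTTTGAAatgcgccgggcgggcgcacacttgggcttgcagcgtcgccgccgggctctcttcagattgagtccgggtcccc
Top2a: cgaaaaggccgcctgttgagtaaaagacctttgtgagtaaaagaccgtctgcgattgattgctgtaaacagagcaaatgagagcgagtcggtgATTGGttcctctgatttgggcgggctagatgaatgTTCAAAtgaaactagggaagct
In Mki67 a TTTGAA match and a CCAAT match on the other strand share 1 base. Of the 59 genes, 48 had a RefSeq promoter, and within 250 bases before the start CCAAT occurred on either strand in 31 of them (64.6%), against 34.3% of all 27457 promoters in the table. TTTGAA occurred on either strand in 13 of the 48 (27.1%), against 16.0% of all promoters and 9.90% of those of the genes tested. A match is a description of the letters and not a bound site.

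The 4 genes with the promoters shown were all lower in VC+ than in D0. Ccnb2 was at 43.3 and 29.4 CPM in D0 and 10.05 and 11.1 CPM in VC+ (-1.71, SE 0.37, DESeq2 adjusted p = 0.00641). Mki67 was at 179 and 177 CPM in D0 and 83.1 and 42.7 CPM in VC+ (-1.57, SE 0.26, DESeq2 adjusted p = 0.000286). Kif23 was at 55.2 and 46.4 CPM in D0 and 18.3 and 22.3 CPM in VC+. In each of them the lower of the D0 libraries exceeded the higher of the VC+ libraries. Top2a was at 241 and 159 CPM in D0 and 104 and 70.2 CPM in VC+ (-1.19, DESeq2 adjusted p = 0.000147).

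By role, the spindle, kinetochore and cytokinesis genes had the lowest median of the 5 roles, -1.35 over 15 genes, of which 12 passed in DESeq2. Cenpf, a kinetochore protein, was at 162 and 98.4 CPM in D0 and 42.1 and 30.3 CPM in VC+ (-1.81, SE 0.18, limma adjusted p = 0.0914). Bub1b, a spindle checkpoint kinase, was at 85 and 49.3 CPM in D0 and 23.3 and 18.4 CPM in VC+, and Tpx2, a spindle assembly factor, at 167 and 99.5 CPM in D0 and 51.3 and 41.7 CPM in VC+. The single spindle gene not lower in both pairs was Aurkb, at 56.8 and 46.1 CPM in D0 and 24.7 and 155 CPM in VC+, lower in replicate 1 and higher in replicate 2. Chromosome structure genes had a median of -1.12 (6 genes) and cyclins, kinases and regulators one of -0.94 (13 genes). The differences were smaller for nucleotide supply (-0.68, 6 genes) and for origin licensing and the replication fork (-0.65, 19 genes, 3 called by DESeq2). Pcna, the sliding clamp of the replication fork, was at 87 and 73.4 CPM in D0 and 84.5 and 69.6 CPM in VC+, and the helicase subunit Mcm3 at 73.8 and 48.3 CPM in D0 and 30.9 and 24 CPM in VC+ (DESeq2 adjusted p = 0.0043).

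Among the D cyclins, which drive entry into the cycle, Ccnd1 was at 159.5 and 171 CPM in D0 and 68.1 and 55.2 CPM in VC+, and Ccnd2 at 53.5 and 119 CPM in D0 and 12.9 and 49 CPM in VC+. Both were lower in each pair and passed in DESeq2 (adjusted p = 0.00359 and 0.000363). The inhibitor Cdkn1a, known as p21, was also lower in both pairs, at 38.3 and 134 CPM in D0 and 5.07 and 75.4 CPM in VC+ (DESeq2 adjusted p = 0.0232). Cdkn1c, known as p57, was the inhibitor higher in both pairs, at 47.7 and 61.8 CPM in D0 and 186 and 80.8 CPM in VC+ (DESeq2 adjusted p = 0.368). Of 13 tested targets of p53, which include Cdkn1a, 8 were lower in both pairs and none was higher. The kinase Plk2 was at 91.3 and 55.8 CPM in D0 and 17.3 and 22.5 CPM in VC+, and the antiproliferative gene Btg2 at 220.2 and 162 CPM in D0 and 96.4 and 37.9 CPM in VC+, both called lower by DESeq2.

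**Figure D3:**
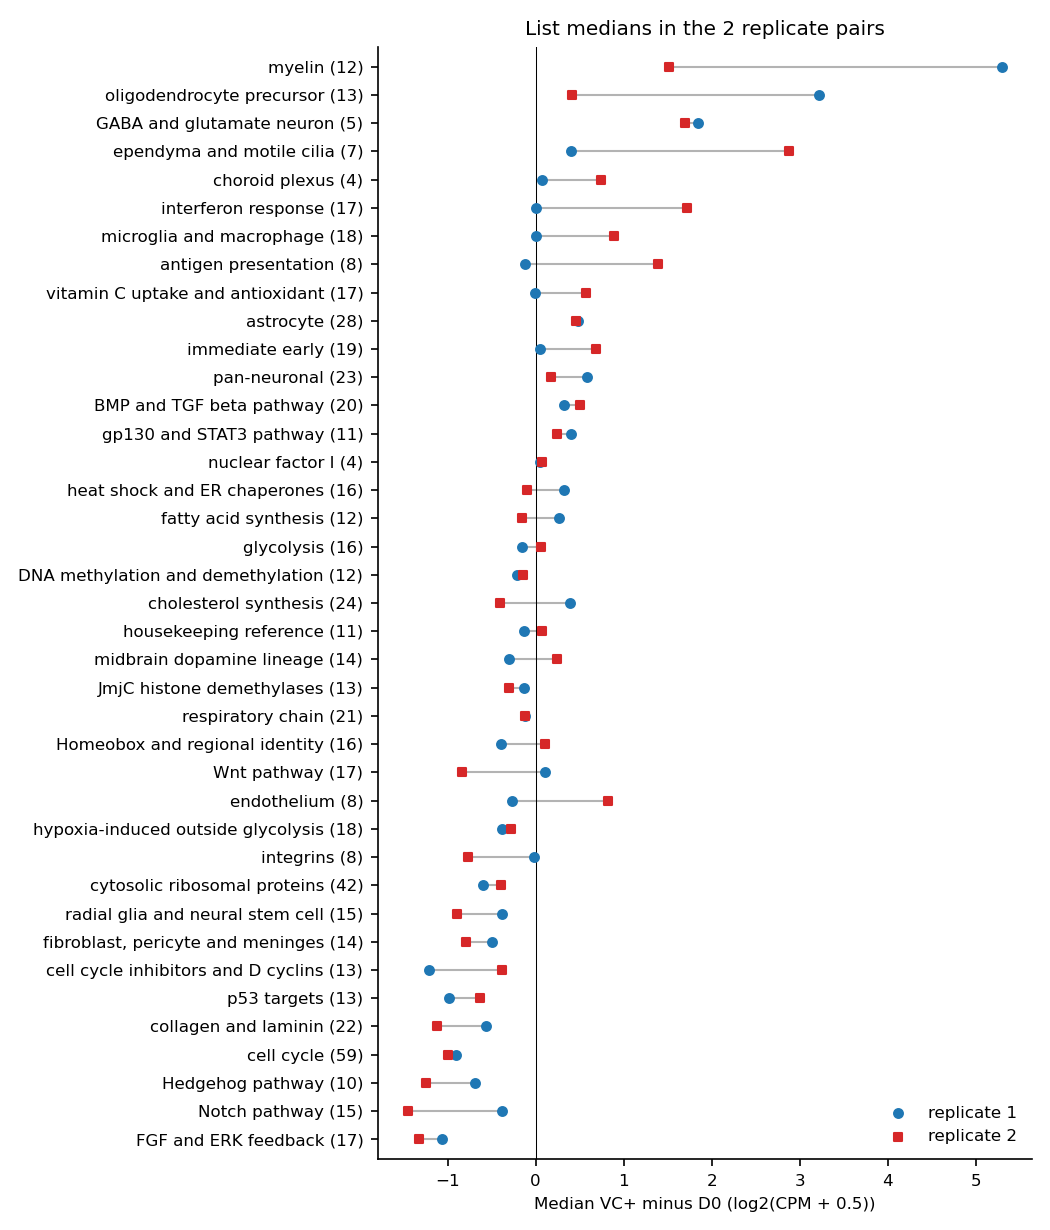
Median difference VC+ minus D0, log2(CPM + 0.5), of each gene list in replicate 1 and replicate 2 (2 points per list, joined by a line), ordered by the median over both pairs; the number of genes tested is given after each name. The points of the cell cycle list nearly coincide at -0.90 and -0.99, while the myelin, oligodendrocyte precursor, interferon response and cilia points lie far apart.

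Stem cell markers were either lower in both pairs or had no shared direction, and none was higher in both. Sox2, a core transcription factor of neural stem cells, was at 363 and 337 CPM in D0 and 455 and 332 CPM in VC+, overlapping between groups, and Fabp7, a fatty acid binding protein of radial glia, at 1961 and 768 CPM in D0 and 2016 and 536 CPM in VC+. Nes, the filament protein nestin, was at 159 and 116 CPM in D0 and 35.3 and 32.5 CPM in VC+ (-1.98, SE 0.18, limma adjusted p = 0.0785; DESeq2 adjusted p = 3.72e-09). Nes thus had no overlap between groups. Ptprz1, a receptor phosphatase and the most abundant member, was at 3292 and 2489.8 CPM in D0 and 1984 and 634 CPM in VC+, and Prom1, the surface protein CD133, at 103 and 686 CPM in D0 and 33.7 and 91.9 CPM in VC+. Of the 15 tested members of the list, 8 were lower in both pairs, none was higher in both, and DESeq2 called 4 lower, among them Nes, Ptprz1 and Prom1.

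The Notch pathway keeps neural stem cells undifferentiated, and 10 of its 15 tested genes were lower in both pairs while 3 were higher (29.6% and 28.2% of all genes). The ligand Dll3 was at 133 and 115 CPM in D0 and 59.3 and 8.19 CPM in VC+, and the ligand Jag1 at 26.5 and 101 CPM in D0 and 5.45 and 25.3 CPM in VC+. Among the receptors, Notch2 was at 436 and 411 CPM in D0 and 173 and 164 CPM in VC+ (DESeq2 adjusted p = 0.00032), and Notch1, the most abundant, at 716 and 664 CPM in D0 and 597 and 242 CPM in VC+ (DESeq2 adjusted p = 0.176). The target Nrarp was at 34.2 and 31.6 CPM in D0 and 10.6 and 3.14 CPM in VC+, with no overlap. Against this direction, the target Hey1 was at 3.66 and 8.48 CPM in D0 and 12.2 and 22.8 CPM in VC+, higher in both pairs (DESeq2 adjusted p = 0.00355).

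In the Hedgehog pathway, a mitogenic route of neural progenitors, 8 of 10 genes were lower in both pairs (29.6% of all genes) and none higher, with a median of -0.96. The ligand Shh was at 2.9 and 117 CPM in D0 and 0.765 and 4.54 CPM in VC+, so that its level in stem cells itself differed widely between replicates. Its receptor and target Ptch1 was at 141 and 337 CPM in D0 and 85.3 and 60.03 CPM in VC+, and the transcription factor Gli2 at 10.3 and 26.5 CPM in D0 and 2.49 and 11.1 CPM in VC+. DESeq2 called 5 members lower, among them Shh, Ptch1, Gli1 and Gli2.

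Several astrocyte genes were higher in VC+ than in D0, but the list as a whole was divided. Gfap, the filament protein that defines mature astrocytes, was at 1.77 and 57.9 CPM in D0 and 684 and 2072 CPM in VC+, the largest difference of all genes higher in both pairs without overlap (6.69, SE 0.88, limma adjusted p = 0.102; DESeq2 adjusted p = 4.26e-14). Aqp4, the water channel of astrocyte endfeet, was at 59.1 and 470.1 CPM in D0 and 2322 and 2392 CPM in VC+ (3.81, SE 0.72). The gap junction gene Gja1 was at 238 and 338 CPM in D0 and 775 and 671 CPM in VC+ (DESeq2 adjusted p = 0.015). In these 3 genes the lower VC+ library exceeded the higher D0 library.

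The secreted proteins of astrocytes accounted for 5 of the 9 members that DESeq2 called higher. Agt, angiotensinogen, was at 7.82 and 4.8 CPM in D0 and 324 and 73.5 CPM in VC+ (4.55, SE 0.39, limma adjusted p = 0.0785). Apoe, the lipid carrier apolipoprotein E, was at 258 and 1620.1 CPM in D0 and 3384 and 5278 CPM in VC+, and Clu, the chaperone clusterin, at 35.6 and 433 CPM in D0 and 751 and 1624 CPM in VC+. Both were low in replicate 1 stem cells, and both were higher in each pair. Cst3, the protease inhibitor cystatin C, was the member of this group on the other side, at 3067 and 3531 CPM in D0 and 324 and 488 CPM in VC+ (-3.05, SE 0.43; DESeq2 adjusted p = 3.29e-11). S100b, a calcium-binding protein of astrocytes, was at 171 and 123 CPM in D0 and 406 and 792 CPM in VC+.

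Genes of glutamate and amino acid metabolism did not share the direction of Gfap. Slc1a3, the astrocyte glutamate transporter GLAST, was at 606 and 852 CPM in D0 and 545 and 476 CPM in VC+, and Glul, glutamine synthetase, at 429 and 546 CPM in D0 and 215 and 405 CPM in VC+. Their group of 7 had 5 members lower in both pairs, 1 higher in both and none called by DESeq2. The one higher in both was Aldh1l1, the folate enzyme used as an astrocyte marker, at 24.7 and 70.9 CPM in D0 and 40.5 and 122 CPM in VC+ (DESeq2 adjusted p = 0.252). Over the whole astrocyte list of 28, 12 were higher and 7 lower in both pairs (28.2% and 29.6% of all genes), with a median of 0.30. Vim, vimentin, fell outside both counts (1304 and 3370.0 CPM in D0, 560.3 and 3930.0 CPM in VC+).

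Myelin genes were far higher in differentiated cells than in stem cells, above all in replicate 1. Of 12 tested, 10 were higher in both pairs, each without overlap between groups, none was lower in both, and DESeq2 called 9. The median difference was 5.30 in replicate 1 and 1.51 in replicate 2. Mbp, myelin basic protein, was at 47.3 and 5.85 CPM in D0 and 3212 and 127 CPM in VC+ (5.20, SE 0.47, limma adjusted p = 0.0785; DESeq2 adjusted p = 1.79e-25). Mag, a glycoprotein of the inner myelin sheath, was at 5.55 and 1.31 CPM in D0 and 286 and 16.1 CPM in VC+. In both the VC+ level was many times higher in replicate 1 than in replicate 2. Myrf, the transcription factor that switches on myelin genes, was at 13 and 24.2 CPM in D0 and 552 and 66.3 CPM in VC+. Mog and Aspa were the members that went opposite ways in the pairs. Mog, a late myelin glycoprotein, was at 14 and 8.8 CPM in D0 and 25.6 and 7.82 CPM in VC+, and Aspa, aspartoacylase, at 30.3 and 8.41 CPM in D0 and 13.5 and 9.6 CPM in VC+.

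The oligodendrocyte precursor list was mixed, with 8 of 13 higher and 2 lower in both pairs. Sox10, the factor that commits cells to the lineage, was at 26.5 and 7.16 CPM in D0 and 513 and 42.7 CPM in VC+, and Gpr17, a receptor of precursors about to mature, at 8.7 and 2.56 CPM in D0 and 393 and 29.4 CPM in VC+. Tnr, the matrix protein tenascin R, was at 2.52 and 3.42 CPM in D0 and 337 and 33.4 CPM in VC+. All of these were higher in both pairs and passed in DESeq2. Olig2, a lineage factor also found in dividing progenitors, was at 419 and 127 CPM in D0 and 485 and 55.8 CPM in VC+, higher in replicate 1 and lower in replicate 2. Its neighbour Olig1 was at 1358 and 303 CPM in D0 and 745 and 72.6 CPM in VC+, and Cspg4, the proteoglycan NG2 of precursors, at 175 and 59 CPM in D0 and 101 and 21.3 CPM in VC+, lower in both pairs (DESeq2 adjusted p = 0.0158 and 0.00825). Pdgfra, the growth factor receptor of precursors, was at 53.2 and 193 CPM in D0 and 498 and 257 CPM in VC+ (DESeq2 adjusted p = 0.104).

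The series describes the differentiated cells as neurons, and pan-neuronal genes went both ways. Of 23 tested, 11 were higher and 6 lower in both pairs (28.2% and 29.6% of all genes), with a median of 0.25, and DESeq2 called 3 higher and 1 lower. Differences ran from -1.52 to 2.07, and without D0 replicate 1 the median was -0.02. Tubb3, the neuronal beta tubulin, was at 10.5 and 45.7 CPM in D0 and 31.4 and 91.3 CPM in VC+ (1.27, DESeq2 adjusted p = 0.0291), and Mapt, the microtubule protein tau, at 8.45 and 28.3 CPM in D0 and 37.3 and 97 CPM in VC+ (1.92, DESeq2 adjusted p = 0.00065). Both were higher in each pair, as was the RNA-binding protein Celf4 (1.64 and 11 CPM in D0, 8.8 and 33.4 CPM in VC+). The member called lower was Sox11, a factor of immature neurons, at 69.99 and 101 CPM in D0 and 31.7 and 26.3 CPM in VC+. Map2, the dendritic microtubule protein, was at 278 and 220.1 CPM in D0 and 206 and 121 CPM in VC+, lower in both pairs but not called, and Snap25, a protein of synaptic release, at 5.8 and 6.7 CPM in D0 and 4.21 and 13.2 CPM in VC+.

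Th, tyrosine hydroxylase, the rate-limiting enzyme of dopamine synthesis, was at 0.252 and 0.394 CPM in D0 and 1.53 and 64.8 CPM in VC+ (3.81, SE 1.12; DESeq2 adjusted p = 6.89e-05). The level of 64.8 CPM was found in replicate 2 only, and the replicate 1 D0 value corresponds to fewer than 3 reads. Nr4a2, the transcription factor Nurr1 of dopamine neurons, was at 4.04 and 6.11 CPM in D0 and 4.5 and 11.1 CPM in VC+ (DESeq2 adjusted p = 0.807). Foxa2 and Lmx1b, earlier factors of the same lineage, were at 4.67 and 45.6 and 1.26 and 19.97 CPM in D0 and at 1.24 and 18.4 and 0.574 and 9.18 CPM in VC+. Both were lower in each pair and not called. En2, a midbrain homeobox gene, was at 42.4 and 128 CPM in D0 and 23.3 and 41.4 CPM in VC+ (DESeq2 adjusted p = 0.00777). Of the 14 genes of the dopamine list, 4 were higher and 4 lower in both pairs, with Th and En2 the only ones called by DESeq2.

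Markers of other neuron types were low. Gad1, which makes GABA, was at 0.252 and 2.5 CPM in D0 and 2.2 and 13.3 CPM in VC+, and Slc17a6, a vesicular glutamate transporter, at 0.378 and 2.1 CPM in D0 and 3.44 and 9.51 CPM in VC+, both higher in each pair (DESeq2 adjusted p = 0.0111 and 0.00892).

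Glycolysis genes had no common direction against stem cells: of 16 tested, 7 were higher and 7 lower in both pairs, with a median of -0.02. Ldha, which converts pyruvate to lactate, was at 235 and 297 CPM in D0 and 80.2 and 122 CPM in VC+ (-1.41, SE 0.17, limma adjusted p = 0.0947; DESeq2 adjusted p = 3.33e-06). Tpi1, triosephosphate isomerase, was at 164 and 227 CPM in D0 and 88 and 126 CPM in VC+. Both lay lower in VC+ without overlap. In contrast, the glucose transporter Slc2a1 was at 26.5 and 56.6 CPM in D0 and 53.5 and 182 CPM in VC+, and Pfkp, a phosphofructokinase, at 15.8 and 19.3 CPM in D0 and 58.2 and 58.5 CPM in VC+, higher in both pairs (DESeq2 adjusted p = 0.00437 and 5.13e-06). Gapdh and Eno1, the most abundant members, were at 639.9 and 599 and 412 and 422 CPM in D0 and at 579 and 598 and 285 and 311 CPM in VC+.

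Genes known to be induced by hypoxia, other than those of glycolysis, had a median of -0.38, with 9 of 18 lower and 4 higher in both pairs. Vegfa, the vascular growth factor, was at 75.8 and 315 CPM in D0 and 76.7 and 196 CPM in VC+, with no shared direction. Loxl2, a matrix cross-linking enzyme, was at 2.77 and 45.3 CPM in D0 and 1.05 and 13.9 CPM in VC+ and was the member DESeq2 called lower. Epas1, which codes for HIF2 alpha, was the one called higher, at 27.7 and 45.3 CPM in D0 and 86.3 and 120.0 CPM in VC+.

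Cholesterol synthesis genes had a median of -0.05 over 24 genes, with 0.39 in replicate 1 and -0.41 in replicate 2, and DESeq2 called none. Hmgcs1, the first committed enzyme of the pathway, was at 450.0 and 173 CPM in D0 and 719.5 and 192 CPM in VC+.

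Matrix genes were mostly lower in VC+ than in D0. Of 22 collagen and laminin chains and collagen enzymes, 15 were lower and 2 higher in both pairs (29.6% and 28.2% of all genes), and DESeq2 called 7 lower and none higher. The median difference from D0 was -0.92 in VC+ and -0.47 in VC-. Set directly against VC-, 11 of the 22 were lower in VC+ in both pairs and 3 were higher. Col4a1, a chain of basement membrane collagen, was at 971 and 3115 CPM in D0 and 78.1 and 863 CPM in VC+ (-2.74, SE 0.53). Col18a1, which carries endostatin, was at 21.9 and 1381 CPM in D0 and 2.2 and 358 CPM in VC+, and Lama5, a laminin chain, at 126 and 277 CPM in D0 and 21.5 and 96.5 CPM in VC+. Plod2, a lysyl hydroxylase of collagen that needs vitamin C, was at 100.1 and 178 CPM in D0 and 16 and 52.9 CPM in VC+. Each of these was lower in both pairs. Col1a1 and Col3a1, the collagens of fibroblasts, were at 39.1 and 5968 and 26.5 and 2108 CPM in D0 and at 49.9 and 1759 and 24.7 and 1316 CPM in VC+. They were abundant in replicate 2 only, where the summed fibroblast, pericyte and meninges markers also went from 10034 to 4151 CPM; in replicate 1 those markers summed to 311 and 309 CPM, and Col4a1 and Plod2 were lower there too. The part of those cells in the replicate 2 values was not tested.

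Among 8 integrin chains, which bind matrix, 4 were lower and 2 higher in both pairs. The higher ones were Itgb4, a laminin receptor chain, at 1.01 and 7.23 CPM in D0 and 12.2 and 57.8 CPM in VC+ (2.99, SE 0.27, limma adjusted p = 0.0785; DESeq2 adjusted p = 3.76e-10), and Itga7, at 12 and 11.7 CPM in D0 and 164 and 22.3 CPM in VC+. Itga5, the fibronectin receptor chain, was at 26 and 99.5 CPM in D0 and 6.6 and 33.2 CPM in VC+ and was called lower by DESeq2.

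Ribosomal protein genes were lower by a small and even amount. Of 42 tested, 41 were lower in both pairs (29.6% of all genes) and 37 were lower without overlap between groups (13.5% of all genes). The median was -0.54, or -0.60 for the replicate 1 pair and -0.39 for the replicate 2 pair. Large and small subunit genes had medians of -0.54 and -0.54. Rplp0, of the large subunit, was at 926 and 766 CPM in D0 and 656 and 597 CPM in VC+, and Rps2, of the small subunit, at 1013 and 674 CPM in D0 and 743 and 419 CPM in VC+. Rpl3 was the member that DESeq2 called, at 885 and 686 CPM in D0 and 527 and 380.0 CPM in VC+ (adjusted p = 0.0304). These genes have many near-identical pseudogene copies, so the authors' counting could have split their reads, and Rplp2 was the member not lower in both pairs, at no more than 1.91 CPM in any of the 4 libraries. Under quantile rescaling and median-of-ratios rescaling the list kept its direction, with medians of -0.44 and -0.55. Respiratory chain genes, by comparison, had a median of -0.12 over 21 genes, with none called by DESeq2, and the reference genes Ywhaz and Tbp were at 501 and 407 and 21.6 and 19.5 CPM in D0 and at 489.6 and 456 and 22.2 and 22.8 CPM in VC+.

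Motile cilia and interferon genes were higher mainly in replicate 2, the pair labelled day 5. Day 4 was labelled only in replicate 1 and day 5 only in replicate 2, so day and replicate cannot be told apart. The D0 libraries already differed, with interferon response sums of 141 CPM in replicate 1 and 797 CPM in replicate 2. Of 7 ependyma and cilia genes, 6 were higher in both pairs, and their median difference was 0.41 for replicate 1 and 2.88 for replicate 2. Foxj1, the master regulator of motile cilia, was at 25.1 and 87.3 CPM in D0 and 33.4 and 391 CPM in VC+, and Rsph1, a radial spoke protein, at 0.378 and 6.11 CPM in D0 and 3.83 and 98.8 CPM in VC+ (DESeq2 adjusted p = 4.73e-12). Among 17 interferon response genes, 8 were higher in both pairs, with medians of 0.00 and 1.72 in replicates 1 and 2. Mx2, an antiviral GTPase, was at 13.2 and 155 CPM in D0 and 10.4 and 489.6 CPM in VC+, lower in replicate 1 and higher in replicate 2. Irf1, an interferon regulatory factor, was at 3.91 and 14.9 CPM in D0 and 8.13 and 44.2 CPM in VC+, higher in both. Microglia markers summed to 1095 and 1508 CPM in the D0 and VC+ libraries of replicate 2 and to 16.0 and 26.4 CPM in those of replicate 1; their part in the interferon values was not tested.

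In the BMP and TGF beta pathway, which favours astrocytes over neurons, 10 of 20 genes were higher and 4 lower in both pairs. The receptor Bmpr1b was at 5.17 and 1.18 CPM in D0 and 39.1 and 11.1 CPM in VC+ (DESeq2 adjusted p = 3.33e-06). Its target Id4, an inhibitor of DNA binding, was at 8.83 and 37.2 CPM in D0 and 30.8 and 113 CPM in VC+ (DESeq2 adjusted p = 5.75e-06). The ligand Bmp7 was lower in both pairs, at 63.4 and 112 CPM in D0 and 5.74 and 45.8 CPM in VC+, while the ligand Bmp6 was higher in both, at 0.631 and 6.9 CPM in D0 and 1.34 and 83.3 CPM in VC+. Thus ligands of the same pathway stood on opposite sides. Stat3, the effector of the gp130 cytokines that drive Gfap, was at 138 and 178 CPM in D0 and 138 and 233 CPM in VC+, and Lifr, a receptor of that family, at 87.1 and 73.7 CPM in D0 and 48.7 and 36.3 CPM in VC+ (DESeq2 adjusted p = 0.0375). Of 17 Wnt pathway genes, 8 were lower and 1 higher in both pairs, and DESeq2 called the receptor Fzd1 (36.3 and 227 CPM in D0, 14.6 and 72.5 CPM in VC+) and the ligand Wnt7a (123 and 45.1 CPM in D0, 42.8 and 23.6 CPM in VC+) lower.

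Among genes that handle vitamin C, Slc23a2, the main vitamin C transporter of neural cells, was at 35.2 and 44.7 CPM in D0 and 63.1 and 41.5 CPM in VC+ (DESeq2 adjusted p = 0.839). The 13 JmjC histone demethylases, which use vitamin C as a cofactor, had a median of -0.12 and none was called; Jmjd1c, the most abundant, was at 246 and 141 CPM in D0 and 263 and 114 CPM in VC+. Among 12 genes of DNA methylation and demethylation, the one called by DESeq2 was Uhrf1, which recruits the maintenance methyltransferase at replication forks and is also in the cell cycle list, at 60.9 and 54.9 CPM in D0 and 33.5 and 20.5 CPM in VC+. Dnmt1, that methyltransferase, was at 171 and 129 CPM in D0 and 158 and 88.1 CPM in VC+. The Tet dioxygenases were not analysed here. The nuclear factor I genes, which code for factors that open glial genes, were measured at 74.7 and 60.8 CPM in D0 and 65 and 53.4 CPM in VC+ for Nfia and at 67.6 and 68.1 CPM in D0 and 102 and 85.5 CPM in VC+ for Nfix, with no call among 4. Cat, catalase, was the antioxidant gene called higher by DESeq2, at 74.9 and 90.8 CPM in D0 and 157 and 168 CPM in VC+ (adjusted p = 0.00849).

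Setting the differentiated controls beside the vitamin C cells shows how far each stood from stem cells. The comparisons share their D0 libraries, so their values are given side by side. The difference between them was tested only in the direct comparison of VC+ with VC-. In VC- against D0, limma called 0 genes higher and 0 lower, as in VC+ against D0. The median of the cell cycle list against D0 was -0.94 with vitamin C and -0.98 without it, and that of the FGF and ERK list -1.09 and -1.09. Set directly against VC-, however, 11 of the 17 FGF and ERK genes were lower in VC+ in both pairs, against 26.6% of all genes, and 2 were higher, with a median VC+ minus VC- of -0.33 and none called lower by DESeq2. Of the 59 cell cycle genes, 6 were lower and 19 higher in VC+ than in VC- in both pairs (26.6% and 29.9% of all genes), with a median of 0.09. Myelin genes had medians of 3.41 with and 3.0 without vitamin C. For ribosomal proteins the medians were -0.54 and -0.20, and 39 of 42 were lower in VC+ than in VC- in both pairs.

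The medians lay apart for glycolysis, hypoxia-induced and lipid synthesis genes. Glycolysis genes were at a median of -0.02 with and 0.51 without vitamin C, and 11 of 16 were lower in VC+ than in VC- in both pairs (26.6% of all genes). Hypoxia-induced genes were at -0.38 and 0.46, and 15 of 18 were lower in VC+ than in VC- in both pairs. Cholesterol synthesis genes were at -0.05 and -0.89; all 24 were higher in VC+ than in VC- in both pairs, against 29.9% of all genes, as were all 12 fatty acid synthesis genes. These counts describe direction only, since the members of a list were measured in the same libraries. The lists with an element known for their regulators were searched in the same 250 bases: ACGTG, the core of the HIF element, occurred on either strand in 5 of 15 glycolysis promoters (33.3%; 16.9% of all promoters, 22.2% of those of genes tested), and TCACNCCAC, a form of the sterol element, in 0 of 17 cholesterol synthesis promoters (0.976% of all). The palindromic nuclear factor I element occurred in 0 of 24 astrocyte promoters (0.0401% of all). The sterol and nuclear factor I forms searched are so rare over all promoters that 0 was the likely count in either list. No conclusion is drawn from these counts.

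In the direct comparison of VC+ with VC-, limma called 0 genes (407 at an unadjusted p under 0.05), edgeR with the replicate block called 0, and DESeq2 with the replicate term called 23 higher (0.200%) and 7 lower (0.0608%). Gfap was at 1.77 and 57.9 CPM in D0, 101 and 224 CPM in VC- and 684 and 2072 CPM in VC+ (VC+ minus VC- 2.98, DESeq2 adjusted p = 0.0481). Agt was at 50.5 and 13.5 CPM in VC-, between its D0 and VC+ levels (2.53, DESeq2 adjusted p = 3.1e-06), and Slc14a1 at 15.9 and 14.5 CPM (1.80, DESeq2 adjusted p = 0.00588). Entpd2 stood at 8.02 and 20.3 CPM in VC- and Itgb4 at 1.63 and 8.33 CPM, both called higher in VC+ than in VC-. Fmo1, a flavin monooxygenase, was at 0.378 and 0.657 CPM in D0, 4.53 and 4.3 CPM in VC- and 65.1 and 24.6 CPM in VC+ (3.05, DESeq2 adjusted p = 3.37e-05). For all of these the order D0, VC-, VC+ held in both replicates.

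Named after their values were seen, 4 more genes were called higher by DESeq2 in VC+ than in D0 and than in VC-. Vcam1, an adhesion molecule of the stem cell niche, was at 22.2 and 83.9 CPM in D0, 29.9 and 100.04 CPM in VC- and 88.8 and 217 CPM in VC+. Prodh, proline dehydrogenase, was at 6.43 and 21.5, 9.42 and 17.8 and 47.6 and 71.1 CPM in the same order of groups. The complement genes C1s (2.02 and 75, 2.56 and 193 and 12.2 and 522 CPM) and Cfb (1.51 and 15.2, 1.4 and 70.7 and 8.61 and 434 CPM) were far more abundant in replicate 2, the replicate with the higher microglia and fibroblast marker sums, whose part in these levels was not tested. The 7 genes called lower in VC+ than in VC- included Ldha, at 316 and 437 CPM in VC- (-1.90, DESeq2 adjusted p = 7.61e-10), and Tpi1, at 308 and 340.0 CPM (-1.62, DESeq2 adjusted p = 3.1e-06). Both stood above their stem cell level without vitamin C and below it with vitamin C in each pair. Col5a3, at 149 and 125 CPM in VC-, and Col18a1, at 11.9 and 809 CPM, lay between their D0 and VC+ levels in both replicates. Vegfa was at 165 and 591 CPM in VC- (-1.35, DESeq2 adjusted p = 0.00719), above D0 in both pairs.

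**Figure D4:**
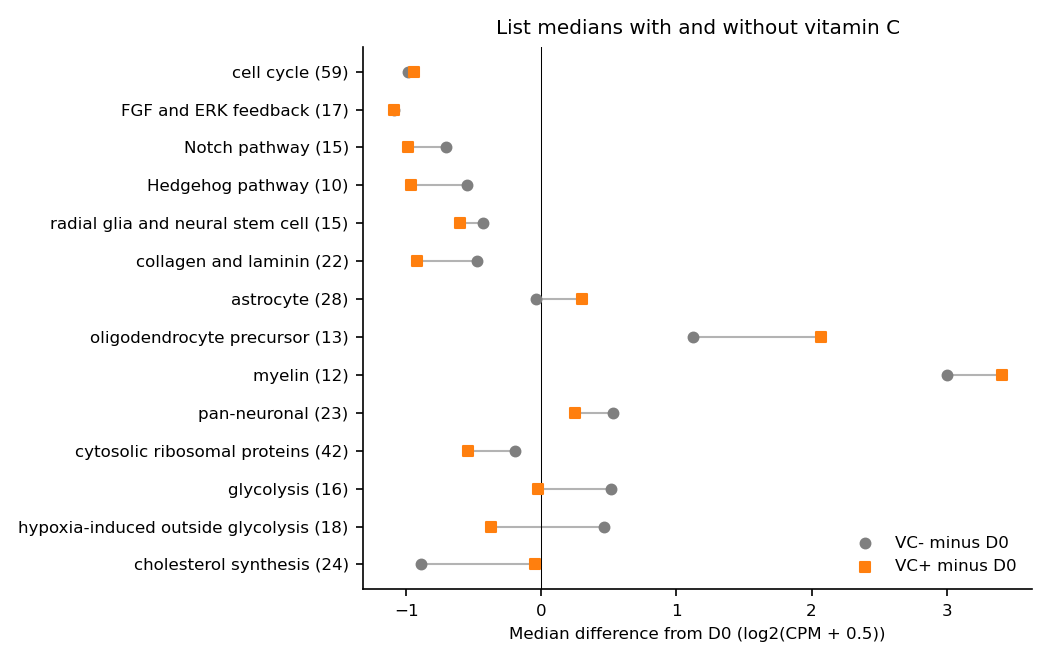
Median difference from D0, log2(CPM + 0.5), of 14 gene lists in VC+ and in VC- cells, over both replicate pairs; the groups share the D0 libraries. The points for the cell cycle list and for the FGF and ERK list nearly coincide, although 11 of the 17 FGF and ERK genes were lower in VC+ than in VC- in both pairs, and those for hypoxia-induced, glycolysis and cholesterol synthesis genes lie apart.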

How the data were processed

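Libraries of total RNA were prepared with a TruSeq kit, per the labels' protocols. The table deposited by the authors gives CPM for each gene. The submitters' processing notes list, with no role, the rn5 build and deepTools 2.4.2, HOMER 4.9.1, Bowtie2 2.1.0, CASAVA 1.7, edgeR 3.12.1 and STAR 2.5.1. The read counter, the annotation and the gene filter are not given in the sources used here. In each library 100% of values were whole multiples of a single step, within a relative tolerance of 1e-06, and dividing by it gave the reads. The genes in the table held between 60.2% and 67.7% of the authors' scaling total.

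Differences were tested in R 4.3.3 with limma 3.58.1 (two-sided, with its intensity trend) on log2(CPM + 0.5) in 6 libraries and 3 groups with the replicate number as a block, 2 residual degrees of freedom and Benjamini-Hochberg adjustment over 11520 genes. Replicate deviations across genes had r = 0.709 between D0 and VC+, 0.744 between D0 and VC- and 0.916 between VC- and VC+; the numbers come from the sample titles. Alternatives included DESeq2 1.42.0 and edgeR 4.0.16 on those reads, other scalings, filters and pseudocounts, and leaving out each library. The code was tested on simulated data.

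The comparison, the 39 lists and the naming rule were chosen with earlier results of these data known. The rule took, per side, the 10 genes of smallest p and the 10 of largest difference without overlap and with at least 5 CPM, 2 abundant and up to 6 called members per list, and a fixed panel; where limma called no gene, other list members were named after their values were seen. Some genes that the rule or the lists hold are not reported here. Promoter sequences and their coordinates come from RefSeq on GRCr8. Counting limits cover counting error only.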

Additional observations from a re-analysis of the deposited data

Results flagged for a closer look

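These results lay on one side of the stem cells with vitamin C in both pairs and on the other side without it in both pairs. The opposite direction against D0 was not tested as such, since both comparisons share the D0 libraries, and limma called no gene between VC+ and VC-. The value given is the difference VC+ minus VC- on the log2(CPM + 0.5) scale.

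Ldha lay below D0 with vitamin C (-1.55 and -1.28 in replicates 1 and 2) and above it without (0.43 and 0.56), with VC+ minus VC- at -1.90. Tpi1 was at -0.90 and -0.85 with and at 0.91 and 0.58 without vitamin C, with VC+ minus VC- at -1.62. Eno1, the glycolytic enolase, had a value of -0.90 and Gapdh one of -0.40, the latter with a difference from D0 of -0.0043 in VC+ replicate 2 and a sign against D0 that changed under quantile rescaling. The median of the hypoxia-induced list was -0.38 and -0.28 with and 0.52 and 0.46 without vitamin C, and the median of its VC+ minus VC- differences was -0.73. Hmgcs1 was above D0 with vitamin C (0.68 and 0.15) and below it without (-0.60 and -0.86), with a value of 1.14. Aldh1l1 had a value of 1.39, at 0.70 and 0.78 with and at -0.31 and -0.99 without vitamin C. DESeq2 with the replicate term called Ldha, Tpi1, Hmgcs1 and Aldh1l1 between VC+ and VC- (adjusted p = 7.61e-10, 3.1e-06, 0.0188 and 0.0272). The medians of the gp130 and STAT3 list (0.24) and of the DNA methylation list (-0.044) met the same condition with values of at most 0.40 on either side of D0.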

How the results depend on the processing

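The count of called genes was the result that moved most with the processing. Against the 0 genes higher and 0 lower that limma called between VC+ and D0, a filter of at least 5 CPM gave 3 higher (Fbxo2, Igsf11 and Maob) and 2 lower (Col5a3 and Tenm4). Median-of-ratios rescaling gave 2 and 2 (the same genes without Maob), and quantile rescaling gave 10 and 6. DESeq2 on the recovered reads gave 388 and 343 with the replicate term and 59 and 80 without it. The other settings, among them pseudocounts of 0.1 and 2, no filter, no intensity trend, the 4 libraries alone, a minimum fold of 1.5 and edgeR with or without the block, gave 0 and 0. With no replicate block limma called 0 higher and 0 lower, with a smallest adjusted p of 0.225 and 511 genes at an unadjusted p under 0.05, so the pairing by replicate number changed no limma call. Leaving out 1 library gave between 0 and 754 genes higher and between 0 and 563 lower: the calls came from leaving out a D0 library, where by construction the residual spread, with 1 degree of freedom, comes from the VC- and VC+ libraries alone and D0 is assumed to vary like them. Between VC+ and VC-, limma without the block and edgeR gave 0 and 0 and DESeq2 gave 23 and 7.

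Of 141 genes named, 1810 of 1969 values under the settings other than leaving out a library kept their direction and side of the threshold, 157 passed it in place of failing, and 2 changed sign. The sign changes were Gapdh under quantile rescaling (0.057) and Rplp2 in edgeR without the block (0.0086), both near 0. Leaving out 1 library changed the sign of 19 genes, with ranges from -1.16 to 0.20 for Aspa, from -0.85 to 1.40 for Aurkb, from -1.87 to 0.46 for Col1a1, from -0.995 to 0.22 for Col3a1, from -0.59 to 0.11 for Fabp7, from -0.34 to 0.88 for Fgfbp3, from -0.19 to 0.046 for Gapdh, from -0.27 to 0.060 for Jmjd1c, from -0.13 to 0.82 for Mog, from -0.31 to 1.64 for Mx2, from -1.31 to 0.34 for Olig2, from -0.15 to 0.032 for Pcna, from -0.27 to 0.23 for Rplp2, from -0.039 to 0.76 for Slc23a2, from -0.30 to 0.80 for Snap25, from -0.0084 to 0.31 for Sox2, from -0.058 to 0.44 for Stat3, from -1.15 to 0.15 for Vim and from -0.027 to 0.16 for Ywhaz. Of the list medians, the GABA and glutamate neuron list turned to -1.39 with the 5 CPM filter, where fewer of its genes were tested, and glycolysis, cholesterol synthesis, dopamine lineage, endothelium and housekeeping medians, all between -0.37 and 0, changed sign under at least 1 setting other than leaving out a library. Leaving out 1 library also changed the sign of the medians of the pan-neuronal (-0.020 to 0.65), Wnt (-1.03 to 0.11), microglia (-0.0057 to 0.82), immediate early (-0.19 to 0.67), fatty acid synthesis (-0.099 to 0.31), chaperone (-0.14 to 0.29), dopamine lineage (-0.42 to 0.26), cholesterol synthesis (-0.38 to 0.34), endothelium (-0.37 to 0.65), glycolysis (-0.21 to 0.12) and housekeeping (-0.17 to 0.12) lists. Depth limited genes under about 1 CPM: a count of 0 allows up to 3 reads, which is 0.378 CPM in the shallowest library and 0.140 CPM in the deepest.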
